A study of Mus musculus with 2 samples.

Results

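The subject is a 20 Mb segment of mouse chromosome 8, from 80 to 100 Mb in build mm9, as it appears in a map of the histone variant macroH2A1.1 in C2C12 cells. The segment was chosen from the input reads per kb of the listed regions along chromosome 8, which had been seen before its borders were drawn. Its members are the listed regions that lie wholly between these borders. There are 767 of them among 50887 regions in the whole list, and 0 regions cross a border. The rest of chromosome 8 holds 1774 listed regions, 1253 before the segment and 521 after it.

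The map comes from 2 libraries of wild type C2C12, an established line of mouse myoblasts, which are muscle precursors that fuse into myotubes once serum is withdrawn. One library is chromatin immunoprecipitation (ChIP) with an antibody raised against macroH2A1.1, and the other is input chromatin with no antibody. The source label of both reads myoblast, whereas their short descriptions carry DM, the abbreviation used in the growth protocol for differentiation medium, and the study describes the profile as one of myotubes. Each group is 1 library, so no difference below has a replicate check, and every interval is a 95% exact interval that covers counting error only.

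MacroH2A1 is a histone H2A variant in which a large globular macrodomain is attached to the histone fold. Alternative splicing gives 2 isoforms, and the macrodomain of macroH2A1.1 binds ADP-ribose while that of macroH2A1.2 does not. The variant often lies over broad stretches of chromatin, so regions are called with methods for wide domains. Input reads give the amount of DNA recovered from a place without selection, and enrichment is the ChIP count over the input count after both are brought to the same library size. The density of input reads therefore also carries the number of copies of a stretch in the cells and how well reads can be placed there. Neither was measured, and their part in the values below was not tested.

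Within the listed regions of the segment, both libraries were denser than on the rest of the chromosome, and the input was raised more than the ChIP. Input density was 12.1 reads per kb of region (12.04 to 12.19) in the segment and 6.58 (6.52 to 6.64) in the other regions of chromosome 8, a ratio of 1.84 (1.82 to 1.86). These input values chose the segment and are given as a description. ChIP density was 28.8 reads per kb (28.66 to 28.91) against 20.6 (20.45 to 20.66), a ratio of 1.40 (1.39 to 1.41). This ratio is not free of the choice either, since a listed region must have more ChIP reads than scaled input. The pooled enrichment was accordingly lower, at 1.64-fold (1.63 to 1.65) in the segment and 2.15-fold (2.13 to 2.18) outside it. When the input, multiplied by the library factor of 1.45, was subtracted from the ChIP, the excess was 11.2 reads per kb in the segment and 11.0 on the rest of the chromosome. The similar excess came with a different mix of widths. In regions of 5 kb or less it was 9.23 reads per kb in the segment and 10.99 outside. From 5 to 20 kb it was 8.92 and 10.4, and above 20 kb 13.6 and 18.3, with only 9 regions outside. It was thus lower in the segment in each class, which follows in part from the choice, as scaled input is subtracted.

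**Figure D1:**
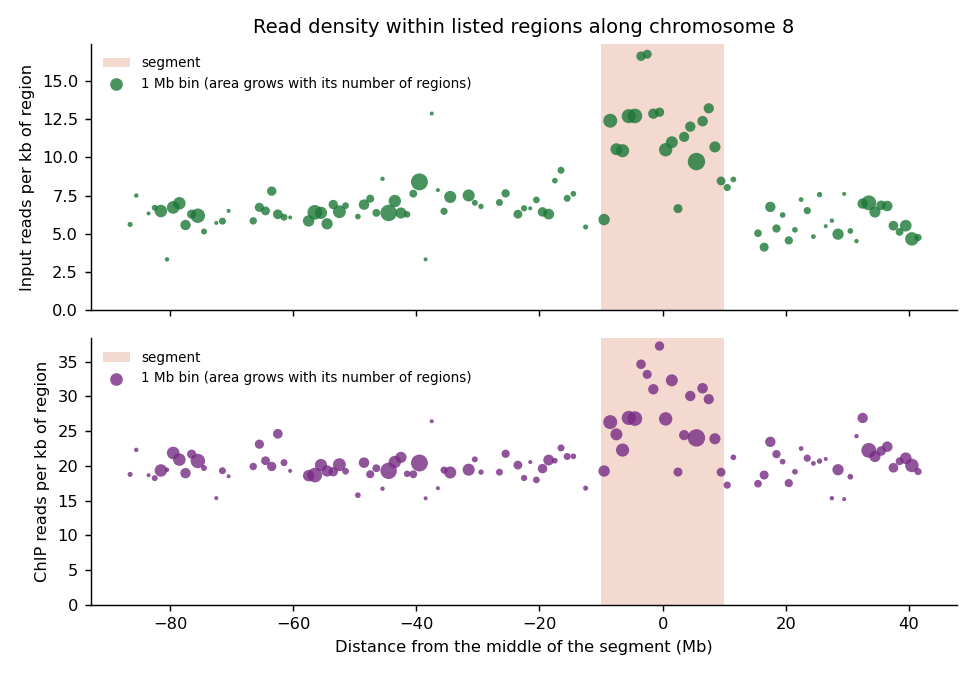
Input reads per kb (top) and ChIP reads per kb (bottom) of listed regions, pooled in bins of 1 Mb, against the distance in Mb from the middle of the segment, which is shaded; point area grows with the number of regions in the bin. Most bins of the segment sit above the rest of the chromosome in both libraries, and the first bin and a bin right of the middle lie near the level outside. The last bin lies near it in ChIP, at 19.1 reads per kb. Its input of 8.45 reads per kb lies above the 6.58 of the rest of the chromosome.

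The left edge of the raised input was sharp. A fit of 3 constant levels to the input counts of all regions of chromosome 8, in order and with region length as exposure, placed it in the interval without regions between 80971800 and 81054801, 83 kb long, with a midpoint at 81.01 Mb. All 12 fits with 3 to 8 levels, by Poisson deviance or by least squares on log2 values, gave it this position. A 3-level fit to the ChIP reads instead placed the edges at 84.04 and 98.07 Mb. The last region before the edge, chr8:80967401-80971800, held 91 ChIP and 28 input reads, or 6.36 input reads per kb. The first region after it, chr8:81054801-81075600, was 20.8 kb wide with 719 ChIP and 252 input reads, or 12.1 per kb, and was enriched 1.97-fold. The 2 regions that came next held 11.0 and 13.3 input reads per kb, and the 2 preceding the last one before the edge held 6.82 and 4.58. Pooled over 10 regions on each side, input rose from 5.70 reads per kb (4.91 to 6.58) to 11.8 (11.05 to 12.7), a ratio of 2.08 (1.77 to 2.45). In bins of 50 kb it stood at 6 (4.51 to 7.83) from 80.95 to 81.00 Mb and at 12.1 (11.0 to 13.2) from 81.05 to 81.10 Mb. Input density thus reached the level of the segment within a single interval between neighbouring regions.

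The 36 members between 80 Mb and this edge had input and enrichment near those of the rest of the chromosome but lay more densely than its average. They held 5.93 input reads per kb (5.50 to 6.39), had a median enrichment of 2.25-fold, and 0 of them was wider than 20 kb. They numbered 43.2 per Mb and covered 14.3% of their stretch, against 16.0 per Mb and 6.601% on the rest of chromosome 8. Their stretch is taken from the first member to the last, whereas the rest includes long intervals without regions. Some 1 Mb bins outside held more regions than these 36, such as 84 from 50 to 51 Mb. Most held fewer. Before the 36 members lay an interval of 2.58 Mb with no listed region, from 77555800 to 80138201. The first 3 members, from chr8:80138201-80142800 on, held 6.74, 8.65 and 3.48 input reads per kb, and the last 3 regions outside the border held 6.55, 4.77 and 9.38. The border at 80 Mb therefore did not coincide with a change in input.

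The right edge was lower and came in more than one step. The 3-level fit placed it between 98459000 and 98564001, an interval of 105 kb with a midpoint at 98.51 Mb, and 4 of the 12 fits gave this position. The Poisson fits with 4 and 6 levels ended the raised part at 99009400. Least squares ended it at 101059600 with 3 levels and at 101126400 with 4 to 8 levels. Most or all of the shoulder described below was thus inside the raised part by least squares. The last 3 regions before the edge at 98.51 Mb held 9.29, 6.25 and 14.3 input reads per kb. The first 3 after it held 8, 7.78 and 5.33, so single regions on both sides overlapped. Pooled over 10 regions on each side, input fell from 10.9 reads per kb (9.90 to 11.9) to 7.32 (6.41 to 8.34), a ratio of 1.48 (1.26 to 1.75). Beyond this edge came a shoulder of 51 regions, from 98564001 to 101126400, with 8.23 input reads per kb (7.79 to 8.68). It was followed by 4.20 Mb without a listed region, and the 503 regions after that stretch held 6.03 reads per kb (5.92 to 6.13). The shoulder was thus 1.36 times (1.29 to 1.44) as dense in input as the distal regions, and its ChIP density of 18.8 reads per kb was below their 21.5. The border at 100 Mb ran through the shoulder, with 8.27 input reads per kb in the 33 members on its near side and 8.15 in the 18 regions on its far side. The last 3 members before the border held 6.25, 11.3 and 8.21 input reads per kb, and the first 3 regions outside held 8.85, 7.06 and 6.30.

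**Figure D2:**
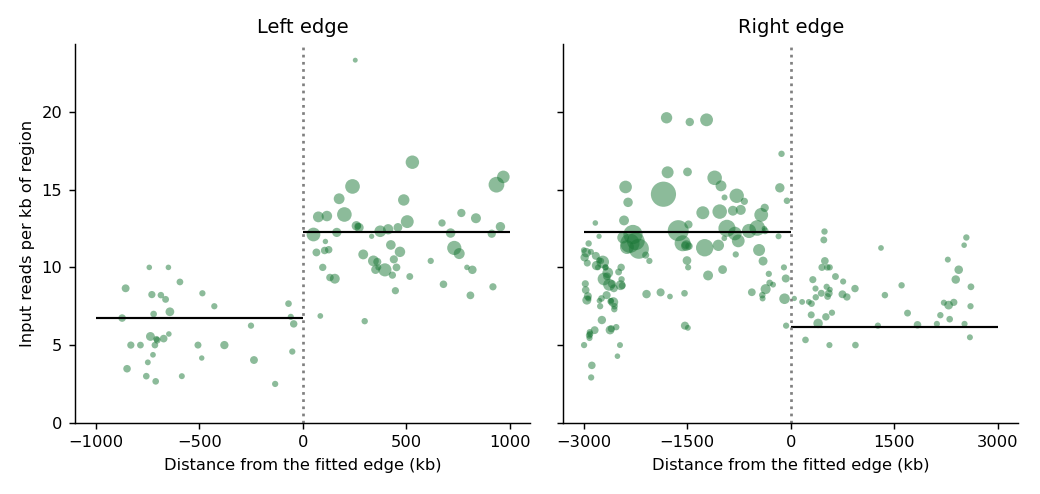
Input reads per kb of each listed region against its distance in kb from the left edge (left panel) and the right edge (right panel); point area grows with region width and black lines mark the pooled density before, between and after the edges (6.77, 12.3 and 6.19 reads per kb). Points step up at the left edge, whereas those after the right edge lie mostly above the line up to the end of the shoulder at 2562.4 kb.

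Between the edges the input was not flat. A fit with 7 levels, chosen after its values were seen, divided the raised part into 5 stretches, numbered here from the left. The division depended on the fit. Among the 6 fits by Poisson deviance, 4 began a crest at 86264401, of which 2 ended it at 88087400, and 2 found the dip with the limits given here. Of the 6 by least squares, 0 gave either. The first, from 81054801 to 86237000, held 276 members with 12.03 input reads per kb (11.9 to 12.2). The second, from 86264401 to 88087400, was the crest, with 35 members at 17.1 (16.8 to 17.4). The third, from 88088201 to 91345400, held 110 members at 12.2 (12.1 to 12.4). The fourth, from 91346401 to 93329400, was a dip of 67 members at 6.90 (6.58 to 7.24), close to the 6.58 of the rest of the chromosome. The fifth, from 93330201 to 98459000, held 210 members at 11.7 (11.6 to 11.9). The raised input was therefore interrupted for about 1.98 Mb. In the dip ChIP density was 18.9 reads per kb, median enrichment 1.94-fold and the count of regions wider than 20 kb 0. Its 33.8 regions per Mb and covered share of 12.7% lay between the values of the rest of the chromosome and those of the whole segment.

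At matching input, macroH2A1.1 signal differed between stretches. The first and the third stretch had nearly equal input, yet ChIP density was 25.8 reads per kb (25.6 to 26.1) in the first and 33.1 (32.9 to 33.4) in the third. Pooled enrichment was 1.48-fold (1.46 to 1.503) and 1.87-fold (1.84 to 1.90), and excess ChIP over scaled input was 8.40 and 15.4 reads per kb. Without the widest member of each, enrichment was 1.47-fold and 1.81-fold. In regions of 5 kb or less the values lay closer, at 1.63-fold (1.57 to 1.69) over 137 members and 1.73-fold (1.61 to 1.86) over 35, and these intervals overlap. In regions wider than 20 kb they lay further apart, at 1.44-fold (1.41 to 1.48) over 22 members and 1.96-fold (1.93 to 2.00) over 24. The difference between the stretches was thus larger in wide regions. The crest, whose input was not matched, had the highest ChIP density of the 5 stretches, 34.7 reads per kb. It had the lowest pooled enrichment, 1.40-fold (1.37 to 1.43). The fit set it apart by dense input, the denominator of the enrichment, so this low value follows in part from its definition. The fifth stretch lay between the first and the third, with 28.3 ChIP reads per kb and 1.67-fold (1.64 to 1.69).

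Regions of the segment were wide, closely spaced and together covered 37.9% of its length, or 7587.8 kb, against 6.601% of the rest of chromosome 8. Coverage was 6.47% before the segment, 6.94% after it and 3.86% in the 10 Mb on either side. Members numbered 38.4 per Mb, compared with 16.0 elsewhere on the chromosome. Their median width was 4800 bp (quartiles 2900 and 10200) against 3400 bp (2400 and 4800), and the median gap to the next region was 3800 bp against 7600 bp. Coverage was highest in the bin from 89 to 90 Mb, where regions took up 720.2 kb, followed by that from 94 to 95 Mb with 691.2 kb. It was lowest from 99 to 100 Mb, at 62.6 kb, then from 92 to 93 Mb in the dip, at 90.6 kb, and from 80 to 81 Mb, at 119.0 kb.

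Of the 767 members, 88 were wider than 20 kb, which is 11.5%, whereas 0.8% of the whole list and 9 of the 1774 regions on the rest of chromosome 8 passed this width. The segment thus held 21.6% of the 407 such regions in the list. All 88 lay between the 2 fitted edges, and they made up 48.2% of the covered length of the segment. Of the 29 regions over 50 kb in the whole list (0.057% of it), 18 were members, and 0 lay on the rest of chromosome 8, where the widest region spanned 46.2 kb. Region width follows from the caller joining eligible windows, so it is not independent of read density. Pooled input in the 88 wide members was 13.5 reads per kb and in the 9 wide regions on the rest of the chromosome 7.24, while ChIP density was 33.2 and 28.8.

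The widest member, chr8:89605401-89849800, spanned 244.4 kb in the third stretch with 10047 ChIP and 3048 input reads. Its input was 12.5 reads per kb and its enrichment 2.27-fold (2.18 to 2.37). The next widest, chr8:86814801-87020000, spanned 205.2 kb in the crest with 7509 ChIP and 3601 input reads. It had more input, 17.5 reads per kb, and an enrichment of 1.44-fold (1.38 to 1.497). These 2 regions thus had similar widths but enrichments whose intervals were far apart. A further crest region, chr8:87030401-87126400 of 96.0 kb, held 3792 ChIP and 1970 input reads and was enriched 1.33-fold (1.26 to 1.40) at 20.5 input reads per kb.

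The other members among the 12 widest also differed in enrichment. In the fifth stretch, chr8:94407601-94504400 covered 96.8 kb with 3466 ChIP and 1092 input reads and was enriched 2.19-fold (2.04 to 2.35). Its neighbour chr8:94334401-94406800, 72.4 kb wide with 2286 and 1022 reads, reached 1.54-fold (1.43 to 1.66). Adjacent domains thus differed at 11.3 and 14.1 input reads per kb. In the third stretch, chr8:91012401-91101000 was 88.6 kb wide, held 3845 ChIP and 1170 input reads and was enriched 2.27-fold (2.12 to 2.42). The regions chr8:89850801-89923000 at 2.15-fold (1.99 to 2.34), chr8:91101801-91166400 at 1.98-fold (1.84 to 2.14), chr8:90010401-90073400 at 1.98-fold (1.82 to 2.16) and chr8:88982801-89047800 at 1.84-fold (1.70 to 1.99) were of the same stretch and between 63.0 and 72.2 kb wide. Among the 12 widest, 2 more fell lower, at 1.51-fold (1.41 to 1.61) for chr8:89270601-89346000 with 17.3 input reads per kb and 1.46-fold (1.36 to 1.57) for chr8:96629401-96704800 with 14.7. Among the 12, the 7 most enriched held 10.8 to 14.4 input reads per kb and the 5 others 14.1 to 20.5, with input also the denominator of the enrichment.

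**Figure D3:**
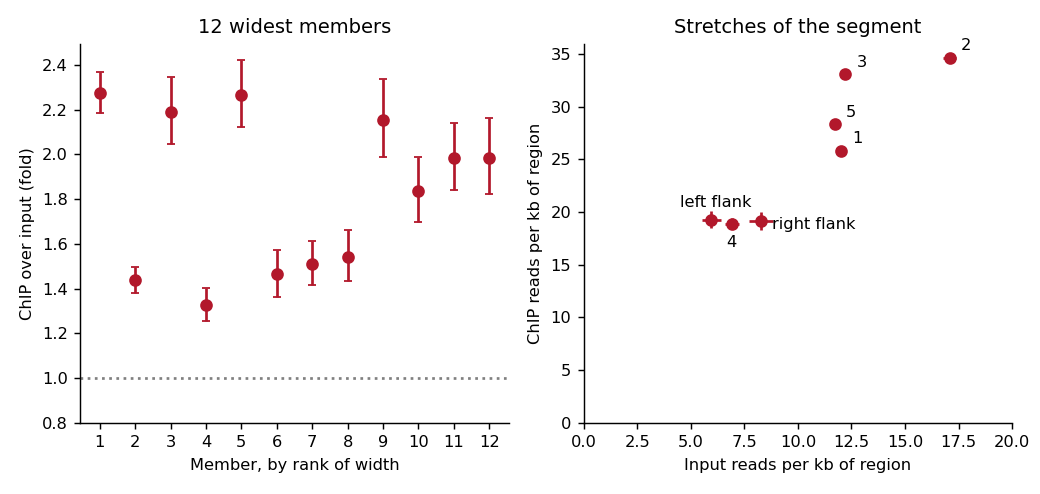
Left, enrichment of the 12 widest members in order of width, with 95% exact intervals (the dotted line marks equal ChIP and scaled input); right, ChIP against input reads per kb for the 5 stretches between the edges (1 to 5) and for the members left and right of the edges, with 95% exact intervals. The 12 widest range from 1.33-fold to 2.27-fold, and stretches 1, 5 and 3 have similar input but 25.8, 28.3 and 33.1 ChIP reads per kb.

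Enrichment of the wide members varied along the segment, with wide overlap, at a limit of 88 Mb and in stretches that were both chosen after the values were seen. Of the 88, 31 began before 88 Mb, and 0 of these was enriched 2-fold or more, whereas 16 of the 57 that began after 88 Mb were and the others were not. Over the whole list, 61.3% of regions were enriched 2-fold or more and 11.3% were under 1.5-fold. The 309 regions wider than 20 kb on other autosomes had a median of 2.36-fold and a lower quartile of 2.04-fold. The first stretch held 22 wide members with a median of 1.36-fold, 15 of them under 1.5-fold. The crest held 9 with a median of 1.39-fold, 8 of them under 1.5-fold. In the third stretch 24 wide members had a median of 1.96-fold, with 2 under 1.5-fold and 9 at 2-fold or more. In the fifth, 33 had a median of 1.63-fold, with 10 under 1.5-fold and 7 at 2-fold or more. The most enriched were chr8:89447401-89468800 with 1109 ChIP and 234 input reads, at 3.27-fold (2.84 to 3.78), and chr8:96247601-96284400 with 1928 and 430 reads, at 3.09-fold (2.78 to 3.44). They were named after their values were seen. The least enriched was chr8:83468601-83494400, 25.8 kb wide with 562 ChIP and 359 input reads, at 1.08-fold (0.944 to 1.24). Its interval includes 1, as did that of 1 other wide member, chr8:85606401-85637600, at 1.11-fold (0.982 to 1.25).

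Some wide members lay in runs that were longer still. When regions at most 1200 bp apart were joined, 533 runs resulted in the segment and 1480 on the rest of chromosome 8. Of these, 155 and 217 joined several regions. The segment held 10 runs over 100 kb and the rest of chromosome 8 held 0, with a widest run of 92.2 kb. The longest, chr8:89605401-89923000, joined 2 regions over 317.6 kb and was enriched 2.25-fold (2.17 to 2.33). The next, chr8:94334401-94564000, joined 3 regions over 229.6 kb at 1.93-fold (1.85 to 2.01). When gaps of up to 10 kb were joined, the segment held 20 runs over 100 kb among 238, and the rest of the chromosome 13 among 752. The widest were 523.6 and 172.8 kb. Neither joining was done over the whole list.

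Low enrichment was common in the segment. Median enrichment was 1.62-fold (quartiles 1.39 and 1.97) and ranged from 1.08 to 7.09, against a median of 2.25-fold (1.74 and 2.94) on the rest of chromosome 8. Under 1.5-fold were 289 members (37.7%), 11.3% of the whole list and 12.7% of the rest of the chromosome. At least 2-fold enriched were 181 (23.6%), against 61.3% of the list, and at least 4-fold enriched were 10 (1.30%), against 8.34%. The exact interval of the enrichment lay above 1 in 555 members (72.4%), compared with 85.4% of the list. The caller takes the input count as free of error, so a region can be listed although its exact interval holds 1. The other 212 members are of that kind. Input, whose density chose the segment, is the denominator of the enrichment, so a low enrichment follows in part from the choice, also where ChIP counts are matched. Among regions with 200 to 500 ChIP reads, 76 of 151 members and 12 of 81 regions on the rest of the chromosome were under 1.5-fold, and among those with 500 or more, 40 of 103 and 0 of 8.

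**Figure D4:**
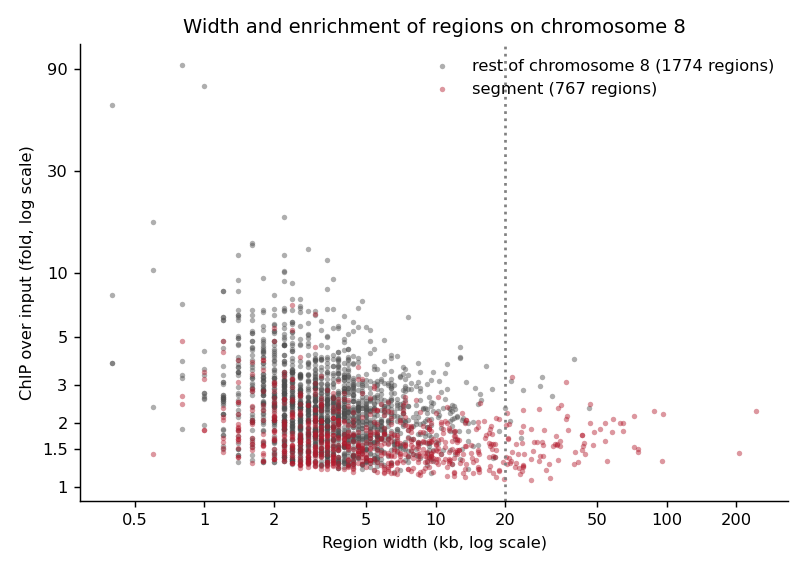
Enrichment (fold of ChIP over scaled input, log scale) against region width (kb, log scale) for the 767 members and the 1774 regions on the rest of chromosome 8; the dotted line marks 20 kb. Beyond 20 kb there are 88 members and 9 other regions, and the members span 1.08-fold to 3.27-fold where the others span 1.70-fold to 3.97-fold.

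The strongest members were short. The highest enrichment belonged to chr8:95617801-95620200, with 72 ChIP and 7 input reads, at 7.09-fold (3.27 to 18.3). Next came chr8:80301201-80304200 with 75 and 8 reads at 6.47-fold, chr8:90156001-90158000 with 48 and 6 reads at 5.52-fold, chr8:80878801-80881200 with 47 and 6 reads at 5.40-fold and chr8:90347401-90348600 with 35 and 5 reads at 4.83-fold. All 5 rested on 8 or fewer input reads, and 2 of them lay before the left edge. At the other end, the 5 least enriched members held 183 to 449 input reads and lay in the first stretch or the crest, between 1.08-fold and 1.12-fold. These depths follow in part from the caller, which lists a region with few reads only at a high enrichment. The lowest enrichment of a member was 1.25-fold under 60 ChIP reads and 1.08-fold at 500 or more.

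Input density was 10 reads per kb or more in 413 members (53.8%), against 8.11% of the list and 7.10% of the rest of chromosome 8, a count that describes the choice of the segment. At least 30 ChIP reads per kb were found in 125 members (16.3%), against 4.85% of the list and 4.002% of the rest of the chromosome. That count is not independent of the choice, as listed ChIP counts lie above the scaled input. The densest input was in chr8:81266801-81267400, a region of 600 bp with 29 ChIP and 14 input reads, or 23.3 per kb. Of the 4 that followed, chr8:86264401-86292800 held 22.6 input reads per kb with 1296 ChIP and 641 input reads at 1.39-fold, and chr8:93707801-93725600 held 21.0 with 630 and 373 reads at 1.16-fold. The remaining 2 were the crest region of 96.0 kb and chr8:86155001-86161400, with 19.7 input reads per kb and 1.78-fold.

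The ratios of both densities to the rest of chromosome 8 differed by width. In regions of 5 kb or less, 394 members against 1392 outside, input density was 1.43 times and ChIP density 1.105 times that of the rest of the chromosome. From 5 to 20 kb, with 285 and 373 regions, the ratios were 1.65 and 1.25. Above 20 kb, with 88 and 9 regions, they were 1.87 and 1.15. Median enrichment was lower in the segment in each class, at 1.70-fold against 2.32-fold, 1.53-fold against 2.03-fold and 1.59-fold against 2.84-fold. Input density chose the segment and is the denominator of enrichment, so denser input and lower enrichment in these classes are a description of that choice.

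At matched input density, enrichment in the segment lay near that elsewhere. With 6 to 8 input reads per kb, the median was 2.02-fold in the segment, 1.99-fold on the rest of chromosome 8 and 2.03-fold on the other autosomes. With 10 to 12 reads per kb it was 1.55-fold over 195 members, 1.40-fold over 102 regions of chromosome 8 and 1.46-fold over 2757 regions of other autosomes. With 14 or more it was 1.33-fold, 1.32-fold and 1.36-fold over 91, 7 and 236 regions. All regions passed the caller, which sets a lower limit on enrichment, so near medians at dense input can follow in part from it. The input classes also fix the denominator of the enrichment, so a fall from class to class is built into them. Width was not matched in them, as members with 14 or more input reads per kb had a median width of 12200 bp and regions of that density on the rest of chromosome 8 and on other autosomes had 1800 and 2400 bp. Regions with such dense input were thus short outside the segment and long inside it.

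**Figure D5:**
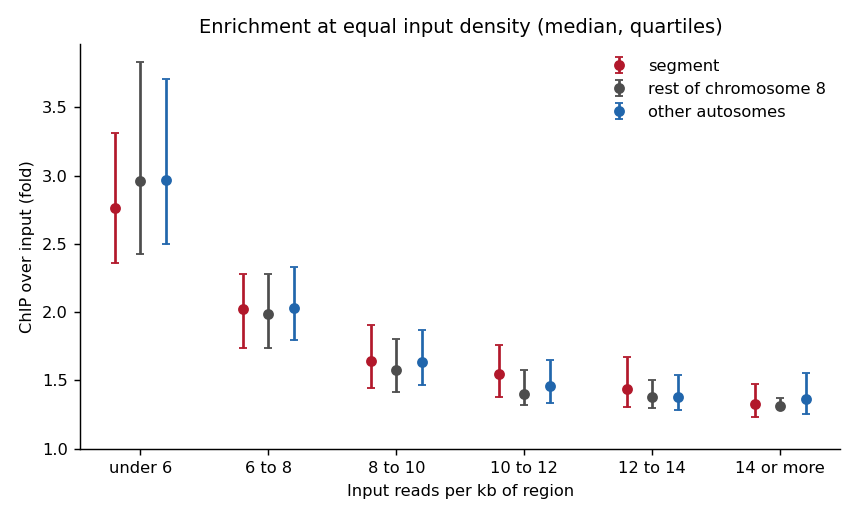
Enrichment of ChIP over scaled input (fold) in 6 classes of input reads per kb, for the segment, the rest of chromosome 8 and the other autosomes; points are medians and bars run between the quartiles. The medians of the 3 sets run from 2.76-fold to 2.97-fold under 6 input reads per kb and from 1.32-fold to 1.36-fold at 14 or more.

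More reads let weaker regions pass the caller's threshold, so both counts of each region were also divided by the input ratio of 1.84 and rounded down, and the caller's Poisson probability was taken again at the largest p-value of the list. Of the 767 members, 709 (92.4%) were kept, against 97.5% of the list and 97.6% of the rest of chromosome 8 under the same scaling. All 181 members enriched 2-fold or more were kept, as were 87 of the 88 wide ones and 232 of the 289 under 1.5-fold. Dividing both counts by the same ratio leaves the enrichment nearly unchanged. The keeping of members with high enrichment or many reads therefore follows largely from the arithmetic. Members that were not kept had a median enrichment of 1.26-fold. The scaling left the borders of the regions as they were. Which regions the caller would list at fewer reads, and with what width, was thus not tested.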

How the data were processed

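Per the labels and the study's methods, reads of both libraries were aligned to mm9 with Bowtie2 2.0.6, and enriched regions were called with SICER. The deposited list carries the name of epic, a re-implementation of that caller. Its steps of 200 bp and shortest separation of 800 bp differ from the window and gap that the methods state, so the settings behind widths and gaps are uncertain. Its columns are the authors' ChIP and input read counts per region, not scaled, the authors' log2 fold change, p-value and FDR, and a deposited score. The deposited log2 value is that of ChIP over input after a library factor of 1.45, and all 50865 p-values above 0 were recomputed as Poisson probabilities within a relative tolerance of 1e-4. Library totals are not given in the sources used here. Members held 28 to 10047 ChIP reads (median 106) and 4 to 3601 input reads (median 46). PCR reads are not independent molecules, so intervals (Clopper-Pearson, Poisson) cover counting error only.

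The segment, lists and measures were chosen with earlier results of these data known. Regions were named by rule: the 12 widest, the 5 highest and 5 lowest in enrichment, the 5 densest in input, and 3 on each side of every border and edge. Edges came from least-deviance Poisson fits. Alternatives covered filters, widths, comparison regions and fits. Starts and ends were taken as the file gives them and are printed 1-based in mm9. Gene annotation of mm9 was not used here, so no gene is named and no sequence is shown. Tools were numpy 2.4.6, pandas 2.3.3, scipy 1.17.1 and matplotlib 3.10.9.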

Additional observations from a re-analysis of the deposited data

How the results depend on the processing

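None of the alternative ratios crossed 1, but those of input and of enrichment use the input values that chose the segment. Those of ChIP are not free of that choice, since the ChIP count of every listed region exceeds its scaled input. Edges, counts, shares and medians have no direction to turn. Of 54 alternative values, 23 lay within the limits and 31 beyond them (the 95% interval for ratios, shares and medians, a factor of 1.5 for counts and 0.25 Mb for edges), with the cause not tested where the setting's own construction does not give it. The ratio of input density to the rest of chromosome 8, 1.84, was 1.88 at an FDR of 0.01 or less, 1.65 in regions of 20 kb or less, 1.43 in those of 5 kb or less, 1.78 against the other autosomes and 1.63 as a ratio of medians. The ChIP ratio, 1.40, was 1.41 at that FDR, 1.54 in regions enriched 2-fold or more, 1.22 and 1.105 at the 2 widths, 1.39 against the 10 Mb on each side, 1.35 against the other autosomes, 1.19 for medians and 1.42 between the fitted edges. The ratio of pooled enrichments, 0.761, was 0.838 in regions enriched 2-fold or more, 0.740 and 0.775 at the 2 widths, 0.746 against the 10 Mb on each side and 0.718 for medians. The right edge moved from 98.51 to 101.08 Mb with least squares, 99.45 Mb with regions of 20 kb or less, 103.22 Mb with those of 5 kb or less and 98.07 Mb with ChIP reads, and the left edge lay at 84.04 Mb with ChIP reads, 81.10 Mb with regions of 5 kb or less and between 81.00 and 81.03 Mb under the other settings. There were 194 members over 10 kb, 18 over 50 kb and 16 over 20 kb with 2-fold enrichment. The covered share, 37.9%, was 8.05% for 2-fold enrichment, 36.0% at the stricter FDR, 42.3% between the edges and 45.4% with gaps of up to 10 kb joined. Median enrichment was 1.67-fold at the stricter FDR. The limit of 5 kb, the fits with 4 to 8 levels and the ratios between the fitted edges were added after seeing the data. No paired analysis was possible because ChIP and input are 1 library each, and no replicate could be left out. Only listed regions carry counts, so reads between regions, library totals and the depth of stretches without regions were not analysed here.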

Other observations

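The following values were chosen after they were seen and have no test. Across the genome, 1467 bins of 1 Mb held at least 10 listed regions, 20 of them in the segment. Pooled input reached 10 reads per kb in 24 bins, 16 of them in the segment, and 12 reads per kb in 12 bins, 10 of them in the segment. Input density chose the segment, so its share of these bins describes that choice. The 2 bins with the densest input were those of the crest, from 87 to 88 Mb with 16.7 reads per kb and from 86 to 87 Mb with 16.6. The bin with the densest ChIP reads was that from 89 to 90 Mb, which contains the widest member, with 37.3 ChIP and 12.9 input reads per kb. The 2 bins over 12 input reads per kb outside the segment lay on chromosome 1 from 173 Mb on, with 13 regions and 13.0 reads per kb, and on chromosome 4 from 151 Mb on, with 10 regions and 12.1. All other bins outside the segment with at least 10 input reads per kb lay on chromosome 15. The densest of these, from 78 Mb on, had 31 regions, 11.8 input and 31.2 ChIP reads per kb.

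Inside the segment the longest intervals between neighbouring regions were 344.8 kb, from 88206600 to 88551401 in the third stretch, 322.8 kb, from 99451800 to 99774601 in the shoulder, and 273.6 kb, from 87126400 to 87400001 in the crest. The last of these begins where the crest region of 96.0 kb ends, so a region among the densest in input lies next to one of the longest intervals without a listed region.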
